A study of Caenorhabditis elegans with 12 samples.

Results

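Astacins are secreted zinc metalloproteases, and most of those encoded by the nematode Caenorhabditis elegans carry the gene name nas, for nematode astacin. The astacin set described here is every entry of the deposited expression table whose gene symbol starts with nas-, which gave 36 identifiers among 46217 in the table. They carry 35 symbols, because nas-22 stands under 2 identifiers with identical values, the second of which (WBGene00169579) is annotated as a piRNA lying inside the nas-22 locus. The table attaches the term metalloendopeptidase activity to 34 of the entries, and nas-40, annotated as a pseudogene, is not among them.

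RNA sequencing was carried out on whole-worm extracts of day 1 adults. The study asked how RDE-1, an Argonaute protein of the exogenous RNA interference pathway, bears on messenger RNAs when a misfolded protein loads the endoplasmic reticulum. The rde-1(ne219); cpl-1* strain, called the double strain below, carries the integrated transgene hhIs113 on chromosome I together with the ne219 allele of rde-1 on chromosome V. The cpl-1* strain carries hhIs113 alone, and the wild type is the N2 laboratory strain, which has neither. The nhx-2 promoter of the transgene drives, in the intestine, a mutant CPL-1 (a lysosomal cathepsin) that cannot fold properly. By genotype the 2 transgenic strains differ in rde-1. Their misfolded load need not be equal, because the cpl-1 mRNA level, given below, was higher in the double strain than in cpl-1*. The labels describe the transgene differently in the 2 strains, with a GFP tag in cpl-1* and a YFP tag plus a pharyngeal mCherry marker driven by the myo-2 promoter in the double strain, and they spell one of the substitutions in CPL-1 differently. Each strain was sampled 3 times, but the table holds 1 pooled FPKM (fragments counted per gene, scaled for transcript length and for the number of mapped fragments) per gene and strain. No spread between samples could therefore be computed, no difference below was tested, and the depth of the libraries is unknown. The strain carrying the non-misfolding form of CPL-1 was not analysed here.

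In nematodes, astacins are best known for work on the cuticle, the collagen coat that a larva replaces at each molt. An old cuticle has to be loosened and partly digested before the animal can leave it, new collagens have to be trimmed outside the cell, and the cuticular lining of the pharynx, including the grinder that crushes bacteria, is renewed at the same time. Other astacins act in hatching, in digestion or in processing of growth factors. Molting ends before adulthood, and many genes of the cuticle are transcribed in cycles during larval life.

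The astacin mRNA pool was larger in the double strain than in either other strain, and its make-up differed. Summed over the 35 genes, astacin mRNA came to 264 FPKM in the double strain, 123 FPKM in cpl-1* and 99.0 FPKM in the wild type. The number of genes listed with at least 1 FPKM was 26 in the double strain, 20 in cpl-1* and 7 in the wild type. At least 10 FPKM was reached by 11 genes in the double strain, 3 in cpl-1* and 4 in the wild type. The median astacin gene stood at 2.96 FPKM in the double strain, 1.45 FPKM in cpl-1* and 0.309 FPKM in the wild type, whereas the level of the most abundant member hardly differed, at 30.9, 30.1 and 29.9 FPKM in the same order of strains.

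The 4 members with at least 10 FPKM in the wild type, nas-11, nas-20, nas-37 and nas-9, together made up 35.9% of the summed astacin FPKM in the double strain, 67.4% in cpl-1* and 86.5% in the wild type. Their own sum was nearly level, at 94.7 FPKM in the double strain, 83.0 FPKM in cpl-1* and 85.6 FPKM in the wild type. Within it, differences partly offset each other. In the double strain and cpl-1*, nas-37 had 30.9 and 16.7 FPKM, and nas-20 had 19.6 and 27.3 FPKM. The other 31 genes summed to 169 FPKM in the double strain, 40.1 FPKM in cpl-1* and 13.4 FPKM in the wild type. Most of the larger sum of the double strain lay in these 31 genes. As the 4 were picked by their wild-type values, a low wild-type level of the other 31 was set by that choice. The split is therefore a description only. In whole-worm RNA, more RNA per cell and more cells of a kind that transcribes these genes cannot be told apart.

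**Figure D1:**
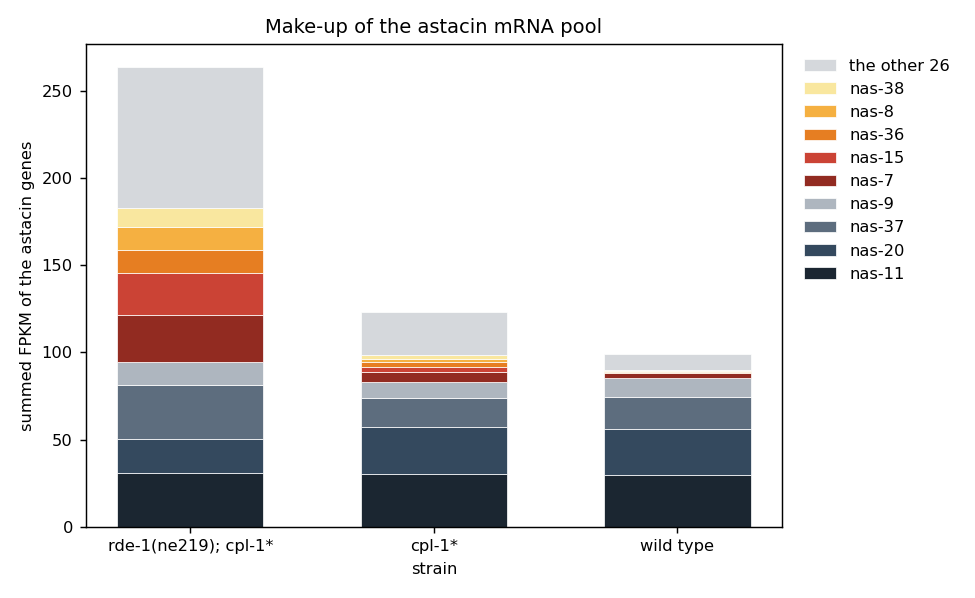
Stacked bars of summed FPKM (vertical axis) of the 35 astacin genes in the double strain, cpl-1* and the wild type (horizontal axis), with 9 genes drawn separately and the other 26 together in light grey. The 4 lowest segments, nas-11, nas-20, nas-37 and nas-9, have nearly the same total in the 3 strains, and the segments above them account for most of the difference between 264, 123 and 99.0 FPKM.

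To compare single genes, log2 ratios were formed after adding 0.1 FPKM to each value, and every fold below is on that scale, which understates the difference of genes with low values. A gene counted as higher or lower at a ratio of 2-fold or more, as a description without a test. Over all 36 entries, 18 were higher and 3 were lower in the double strain than in cpl-1*, 19 were higher and 0 lower in cpl-1* than in the wild type, and 22 were higher and 0 lower in the double strain than in the wild type. Over all 46217 identifiers, most of which had a mean under 1 FPKM, 10.9% were higher and 5.68% lower in the double strain than in cpl-1*, 6.56% were higher and 1.44% lower in cpl-1* than in the wild type, and 13.3% were higher and 7.07% lower in the double strain than in the wild type. These comparisons share samples, so they are not independent of each other.

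To read those counts against the rest of the genome, genes were kept if their mean over the 3 strains was at least 1 FPKM, which left 14890 identifiers and 25 of the 36 astacin entries (24 genes). In the double strain against cpl-1*, 16 of the 25 entries (15 genes) were higher, which is 64%, beside 24.2% of all genes, and 1 was lower, beside 13.8% of all genes. Their median log2 ratio was 1.77, against 0.086 over all genes. In cpl-1* against the wild type, 15 entries (14 genes) were higher, which is 60%, beside 15.5% of all genes, and 0 were lower, beside 1.97% of all genes. There the median log2 ratio was 1.55, against -0.03 over all genes. In the double strain against the wild type, 19 entries (18 genes) were higher, which is 76%, beside 29.7% of all genes, and 0 were lower, beside 17.8% of all genes. The median log2 ratio of that comparison was 3.47, against 0.046 over all genes.

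The filter bears on these shares. Of the 25 entries kept, 18 were under 1 FPKM in the wild type and passed only through a higher level in another strain, so they had to differ. When genes were instead kept for at least 1 FPKM in the wild type, a choice made after the values were seen, 7 astacins remained: nas-11, nas-20, nas-37, nas-7, nas-9, nas-31 and nas-32. Of these 7, 1 (14.3%) was higher in each of the 3 comparisons, nas-7 every time, and 0 were lower. Among the 13219 genes kept in the same way, 15.7% were higher and 15.9% lower in the double strain than in cpl-1*, 7.41% were higher and 2.89% lower in cpl-1* than in the wild type, and 20.2% were higher and 21.5% lower in the double strain than in the wild type. With 7 genes, 1 of them higher is no result about the astacins that wild-type adults express, and for the others the shares over the 25 entries are a description that the filter helped to set.

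**Figure D2:**
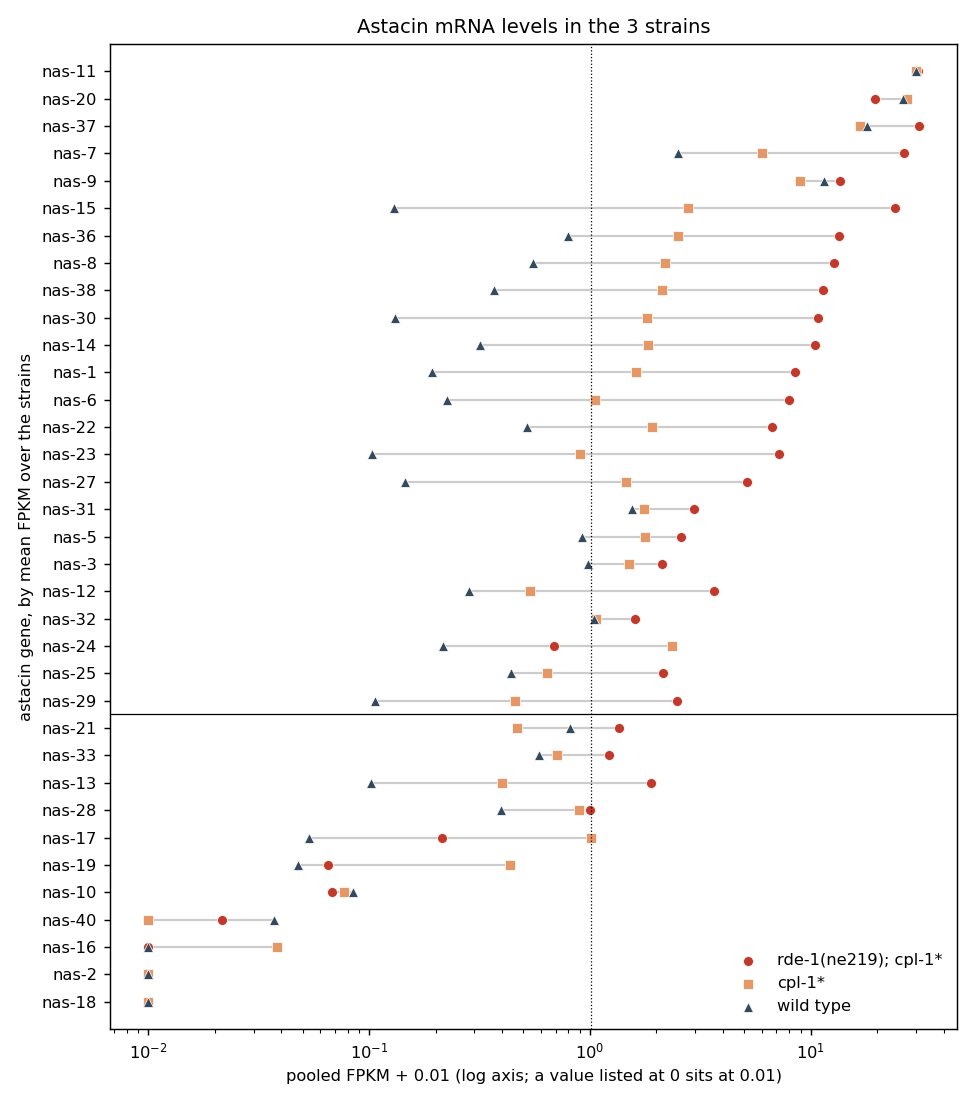
Pooled FPKM plus 0.01 on a log axis (horizontal) for each of the 35 astacin genes (vertical, by mean level), with circles for the double strain, squares for cpl-1* and triangles for the wild type. The solid line separates the 24 genes with a mean of at least 1 FPKM from the 11 others, the dotted line marks 1 FPKM, and in most genes of the upper block the circle lies furthest right and the triangle furthest left.

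The order of the 3 strains was shared by most members. The double strain was highest, cpl-1* next and the wild type lowest for 24 of the 36 entries, and for 15.8% of all 46217 identifiers. It held for 21 of the 25 entries that passed the filter and for 36.4% of all genes that passed, and both steps were of 2-fold or more for 14 of the 25 entries (13 genes) and for 12.0% of all genes. For the 18 entries under 1 FPKM in the wild type the filter itself largely placed the wild type lowest. Of the 7 with at least 1 FPKM in the wild type, 4 had the order, nas-11, nas-7, nas-31 and nas-32, beside 28.3% of all genes kept in that way. The exceptions to the order among the genes that passed were nas-37 and nas-9, lowest in cpl-1*, nas-20, lowest in the double strain, and nas-24, highest in cpl-1*.

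Among astacins with a known part in ecdysis, the shedding of the old cuticle, nas-36 and nas-37 behaved unlike each other. NAS-36 and NAS-37 are both required for larvae to leave the old cuticle. The gene nas-36 (I:7527224-7531715, plus strand, 16 coding exons) was listed at 13.5 FPKM in the double strain, 2.50 FPKM in cpl-1* and 0.785 FPKM in the wild type. It was therefore 5.23-fold higher in the double strain than in cpl-1* and 2.93-fold higher in cpl-1* than in the wild type. The gene nas-37 (X:9944844-9949060, minus strand, 18 coding exons) was already among the most abundant astacins of wild-type adults, with 30.9 FPKM in the double strain, 16.7 FPKM in cpl-1* and 17.97 FPKM in the wild type. Its difference between the double strain and cpl-1* was 1.85-fold and its difference between cpl-1* and the wild type was a log2 ratio of -0.11, so that neither reached 2-fold.

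NAS-38, which has been tied to the sleep-like quiescence that accompanies each molt, is encoded near the left end of chromosome X (X:558141-563657, plus strand). Its mRNA was listed at 11.4 FPKM in the double strain, 2.11 FPKM in cpl-1* and 0.359 FPKM in the wild type. Each step was of similar size, 5.21-fold between the double strain and cpl-1* and 4.81-fold between cpl-1* and the wild type.

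The deposited table attaches a molting cycle term to 19 of the 35 genes, nas-36, nas-37 and nas-38 among them. Of these 19, 12 passed the filter, and 7 were higher and 1 was lower in the double strain than in cpl-1*, 7 were higher in cpl-1* than in the wild type, and 8 were higher in the double strain than in the wild type. The 16 genes without the term gave 12 that passed, with 8 higher in the double strain than in cpl-1*, 7 higher in cpl-1* than in the wild type and 10 higher in the double strain than in the wild type. Of all genes that passed, 24.2% were higher and 13.8% lower in the double strain than in cpl-1*. In cpl-1* against the wild type 15.5% of all genes were higher, and in the double strain against the wild type 29.7%. The median log2 ratio of the double strain over cpl-1* was 1.69 with the term and 2.39 without it, and that of cpl-1* over the wild type was 1.51 with the term and 1.53 without it. Genes with and without the molting annotation were both among the higher ones, but the filter helped to set the counts and medians of each class. A difference between the 2 classes was not tested.

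The pharyngeal astacins followed the common order of strains. NAS-6 and NAS-7 act in formation of the pharyngeal grinder, and the table attaches pharynx development to nas-5, nas-6 and nas-7. The gene nas-7 (II:7400544-7402724, minus strand) was listed at 26.6 FPKM in the double strain, 6.01 FPKM in cpl-1* and 2.51 FPKM in the wild type. With a 4.37-fold difference between the double strain and cpl-1* and a 2.34-fold difference between cpl-1* and the wild type, it was 10.2-fold higher in the double strain than in the wild type. This makes nas-7 the one astacin with at least 1 FPKM in the wild type that was 2-fold or more higher in each comparison.

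The gene nas-6 (IV:17486871-17490779, minus strand) lay below nas-7 in all 3 strains, with 8.01 FPKM in the double strain, 1.04 FPKM in cpl-1* and 0.217 FPKM in the wild type. Its difference was 7.10-fold between the double strain and cpl-1*. By contrast nas-5 (I:9886200-9888154) spanned a narrow range, with 2.58 FPKM in the double strain, 1.77 FPKM in cpl-1* and 0.909 FPKM in the wild type, and passed 2-fold only in the double strain against the wild type. Markers of the pharynx stood higher in the double strain than in cpl-1* as well, by less than nas-6 and nas-7. They differed by more than nas-5, which had a log2 ratio of 0.52 there. The pharyngeal muscle myosins myo-1 and myo-2 had log2 ratios of 0.80 and 0.93 in the double strain over cpl-1*, and the pharyngeal transcription factor genes pha-4 and ceh-22 had 0.85 and 1.05. Their part in the nas-6 and nas-7 values was not tested.

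The largest ratio of the family belonged to nas-15 (X:777721-780514, plus strand, 10 coding exons). It was listed at 24.1 FPKM in the double strain, 2.78 FPKM in cpl-1* and 0.119 FPKM in the wild type. The double strain was 8.40-fold above cpl-1*, and cpl-1* was 13.2-fold above the wild type. The ratio of the double strain to the wild type, a log2 value of 6.79, depends on the small constant added, because the wild-type level is close to it. With 1 FPKM added in place of 0.1 FPKM the log2 ratio was 4.49. In the double strain only nas-37, nas-11 and nas-7 stood above nas-15, a gene that the wild type listed below the family median of 0.309 FPKM.

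Several further genes without a role named here shared the pattern of nas-15 at lower levels. The gene nas-8 (IV:7114899-7121413) had 12.7 FPKM in the double strain, 2.17 FPKM in cpl-1* and 0.540 FPKM in the wild type. For nas-30 (I:942257-947710) the values were 10.8 FPKM in the double strain, 1.80 FPKM in cpl-1* and 0.121 FPKM in the wild type. For nas-14 (IV:13170544-13173694) they were 10.4 FPKM in the double strain, 1.82 FPKM in cpl-1* and 0.309 FPKM in the wild type. All 3 were close to each other in the transgenic strains and were between 5.48-fold and 5.73-fold higher in the double strain than in cpl-1*.

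The same order held a step lower for nas-1 (III:13405965-13409292), with 8.46 FPKM in the double strain, 1.62 FPKM in cpl-1* and 0.183 FPKM in the wild type. The gene nas-23 (II:7491399-7493699) was listed at 7.17 FPKM in the double strain, 0.895 FPKM in cpl-1* and 0.0929 FPKM in the wild type. The gene nas-22 (V:11474694-11477951) was listed at 6.69 FPKM in the double strain, 1.90 FPKM in cpl-1* and 0.512 FPKM in the wild type. Each of these was 2-fold or more higher in both steps, and nas-23 was under 1 FPKM in both cpl-1* and the wild type.

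The gene nas-27 (II:1175976-1179323) was listed at 5.13 FPKM in the double strain, 1.45 FPKM in cpl-1* and 0.136 FPKM in the wild type, with the greater step between cpl-1* and the wild type, a log2 ratio of 2.71. The opposite held for nas-12 (IV:10224023-10227639), with 3.63 FPKM in the double strain, 0.527 FPKM in cpl-1* and 0.274 FPKM in the wild type, where the step between the double strain and cpl-1* was a log2 ratio of 2.57. The gene nas-29 (II:5138648-5142036) had 2.48 FPKM in the double strain, 0.447 FPKM in cpl-1* and 0.0968 FPKM in the wild type. At 2.14 FPKM in the double strain, 0.628 FPKM in cpl-1* and 0.429 FPKM in the wild type, nas-25 (II:8826069-8829287) passed 2-fold only where the double strain was involved. All 4 were under 1 FPKM in the wild type, where a ratio depends most on the constant added.

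None of the 4 astacins with at least 10 FPKM in the wild type reached 2-fold in any comparison, but only nas-11 was nearly level. In the double strain over cpl-1*, nas-37, described above, was 1.85-fold and nas-9 was 1.51-fold higher. The gene nas-11 (X:6713577-6718670, plus strand, 11 coding exons) was listed at 30.7 FPKM in the double strain, 30.1 FPKM in cpl-1* and 29.9 FPKM in the wild type, the flattest profile of the genes that passed. The gene nas-9 (V:4836027-4840010) had 13.5 FPKM in the double strain, 8.93 FPKM in cpl-1* and 11.4 FPKM in the wild type. The gene nas-20 (V:11470868-11472349) stood lowest in the double strain, with 19.6 FPKM there, 27.3 FPKM in cpl-1* and 26.3 FPKM in the wild type. Its log2 ratio over cpl-1* was -0.48, short of 2-fold. For nas-11, 163 exon bases, 9.17% of its exon length, are also covered by exons of a coding gene on the other strand, and whether the library kept strand is not given in the sources used here.

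Low-level members with small ratios were nas-31 (V:10918861-10921847), with 2.96 FPKM in the double strain, 1.76 FPKM in cpl-1* and 1.55 FPKM in the wild type, nas-3 (V:9478163-9479601), with 2.12 FPKM in the double strain, 1.502 FPKM in cpl-1* and 0.971 FPKM in the wild type, and nas-32 (V:894930-899187), with 1.59 FPKM in the double strain, 1.06 FPKM in cpl-1* and 1.04 FPKM in the wild type. None of these 3 reached 2-fold between the double strain and cpl-1* or between cpl-1* and the wild type, and nas-3 passed it narrowly, at a log2 ratio of 1.05, between the double strain and the wild type.

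A single member that passed the filter was 2-fold or more lower in the double strain than in cpl-1*. This was nas-24 (V:13769669-13771279, plus strand, 3 coding exons), listed at 0.680 FPKM in the double strain, 2.34 FPKM in cpl-1* and 0.207 FPKM in the wild type, a log2 ratio of -1.65 for the double strain over cpl-1* and of 2.99 for cpl-1* over the wild type. With 1 FPKM added the log2 ratio over cpl-1* was -0.99, just short of 2-fold.

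**Figure D3:**
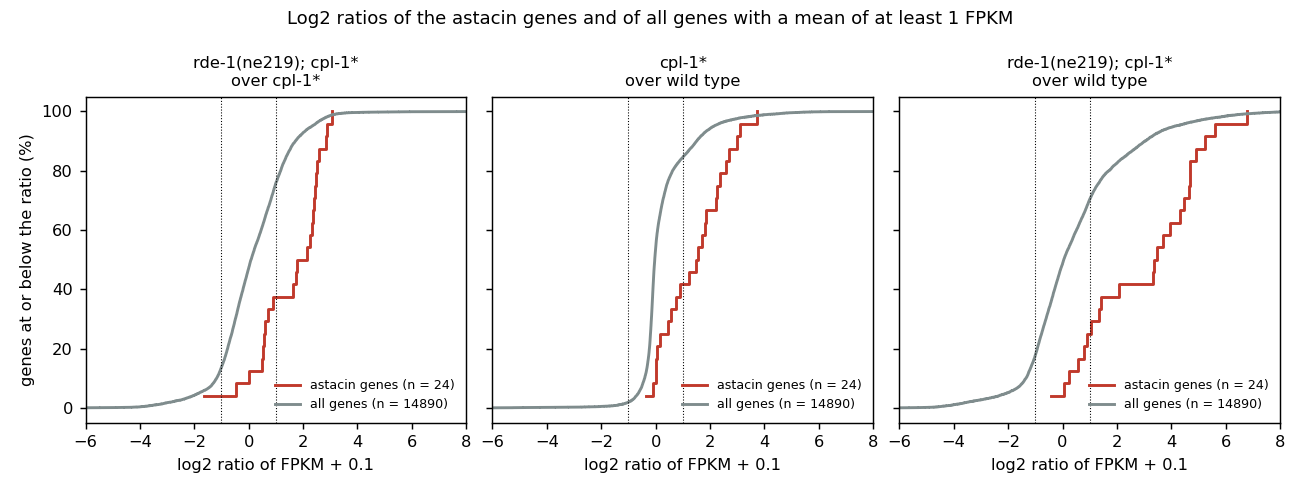
Cumulative share of genes in percent (vertical axis) at or below each log2 ratio of FPKM plus 0.1 (horizontal axis) for the 24 astacin genes (red) and all 14890 identifiers (grey) that passed the filter, in one panel per comparison, with dotted lines at 2-fold. The red curve lies right of the grey curve over nearly its whole length in each panel, with nas-24 as its lowest point, at -1.65, in the panel of the double strain over cpl-1*.

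The 11 entries that did not pass the filter reached at most 1.88 FPKM in the double strain, 0.997 FPKM in cpl-1* and 0.799 FPKM in the wild type. The highest of them in the double strain was nas-13, with 1.88 FPKM in the double strain, 0.390 FPKM in cpl-1* and 0.0923 FPKM in the wild type. The genes nas-21 and nas-33 were also above 1 FPKM in the double strain, at 1.34 and 1.21 FPKM, and nas-28 was just under it, at 0.988 FPKM. The genes nas-17 and nas-19 resembled nas-24 in being highest in cpl-1*. The gene nas-17 was listed at 0.205 FPKM in the double strain, 0.997 FPKM in cpl-1* and 0.0437 FPKM in the wild type. For nas-19 the values were 0.0550 FPKM in the double strain, 0.423 FPKM in cpl-1* and 0.0377 FPKM in the wild type. Below 0.1 FPKM in all strains were nas-10, nas-16 and nas-40, and nas-2 and nas-18 were listed at 0 in all 3.

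Chromosome V holds 14 of the 35 genes, but only 7 of these 14 passed the filter, beside 17 of the 21 genes on the other chromosomes. A run of 7 of them, nas-16, nas-18, nas-17, nas-19, nas-20, nas-21 and nas-22, lies between 11392320 and 11477951 on chromosome V, within 85.6 kb. Profiles in this run were mixed. The gene nas-20 stood at a log2 ratio of -0.48 in the double strain over cpl-1*, short of 2-fold. In the same comparison nas-22, at the right end of the run, was 3.40-fold higher. Between them, nas-21 had 1.34 FPKM in the double strain, 0.459 FPKM in cpl-1* and 0.799 FPKM in the wild type. The adjacent nas-17 and nas-19 shared a profile, both being highest in cpl-1*, with log2 ratios of -1.85 and -1.75 for the double strain over cpl-1* and of 2.93 and 1.92 for cpl-1* over the wild type. Neither passed the filter, and both were under 1 FPKM in every strain, where a ratio depends most on the constant added. Of the remaining genes in the run, nas-16 was listed at 0.0282 FPKM in cpl-1* and at 0 in the other strains, and nas-18 at 0 in all 3. Related neighbouring genes can share reads, and how such reads were divided is not given in the sources used here. In addition, 12 entries lie at loci that hold more than 1 identifier in the table, and 10 entries share exon bases with a coding gene on the other strand.

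Astacins named for their mutant phenotypes or for their likeness to tolloid fall outside the nas- symbols, and 3 of 4 looked for were found in the table. DPY-31 trims the carboxy-terminal propeptide of cuticle collagen. Its gene dpy-31 was listed at 26.0 FPKM in the double strain, 17.3 FPKM in cpl-1* and 16.2 FPKM in the wild type. The tolloid-like toh-1 had 35.1 FPKM in the double strain, 15.8 FPKM in cpl-1* and 11.5 FPKM in the wild type. HCH-1, the hatching enzyme of the embryo, went the other way, with 0.0782 FPKM in the double strain, 1.78 FPKM in cpl-1* and 3.97 FPKM in the wild type. The difference of hch-1 between the double strain and cpl-1* was a log2 ratio of -3.40, further below 0 than that of any nas- gene that passed the filter.

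Other genes of the molt were compared as a list of 15 regulators and effectors, of which 14 were found and passed the filter. In the double strain against cpl-1*, 12 were higher and 0 lower, beside 24.2% and 13.8% of all genes that passed. The median log2 ratio of the list was 2.66. In cpl-1* against the wild type 7 were higher, beside 15.5% of all genes that passed, with a median of 0.91. The gene qua-1, which encodes a hedgehog-related protein needed for molting, was listed at 40.2 FPKM in the double strain, 5.09 FPKM in cpl-1* and 0.498 FPKM in the wild type, and mlt-9 at 45.3 FPKM in the double strain, 5.87 FPKM in cpl-1* and 0.519 FPKM in the wild type. The genes qua-1, mlt-9 and ptr-4, the last at 0.637 FPKM, were under 1 FPKM in the wild type. They passed the filter only through the other strains, so they had to differ. With 14 genes, chosen with earlier results of these data known, the counts of this list are a description. The nuclear receptor gene nhr-23, a regulator of molting, did not share the order of qua-1 and mlt-9, with 28.4 FPKM in the double strain, 32.5 FPKM in cpl-1* and 33.8 FPKM in the wild type. Nor did nhr-25 and fbn-1, which were lowest in cpl-1*.

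Among 10 genes of collagen processing and cross-linking, 5 were higher and 1 was lower in the double strain than in cpl-1*, with a median log2 ratio of 1.05. Of all genes that passed, 24.2% were higher and 13.8% lower in that comparison. In cpl-1* against the wild type 1 of the 10 was higher, beside 15.5% of all genes that passed. The collagen gene sqt-3, whose product is a DPY-31 substrate, was listed at 771 FPKM in the double strain, 107 FPKM in cpl-1* and 29.4 FPKM in the wild type. The collagen gene dpy-17 was the lower one, with 3.13 FPKM in the double strain, 22.9 FPKM in cpl-1* and 32.8 FPKM in the wild type. The gene bli-4, for the kexin-like protease that trims collagen amino ends, was level at 78.3 FPKM in the double strain, 74.3 FPKM in cpl-1* and 79.5 FPKM in the wild type. Enzymes and substrates of the cuticle therefore did not all share the astacin order.

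**Figure D4:**
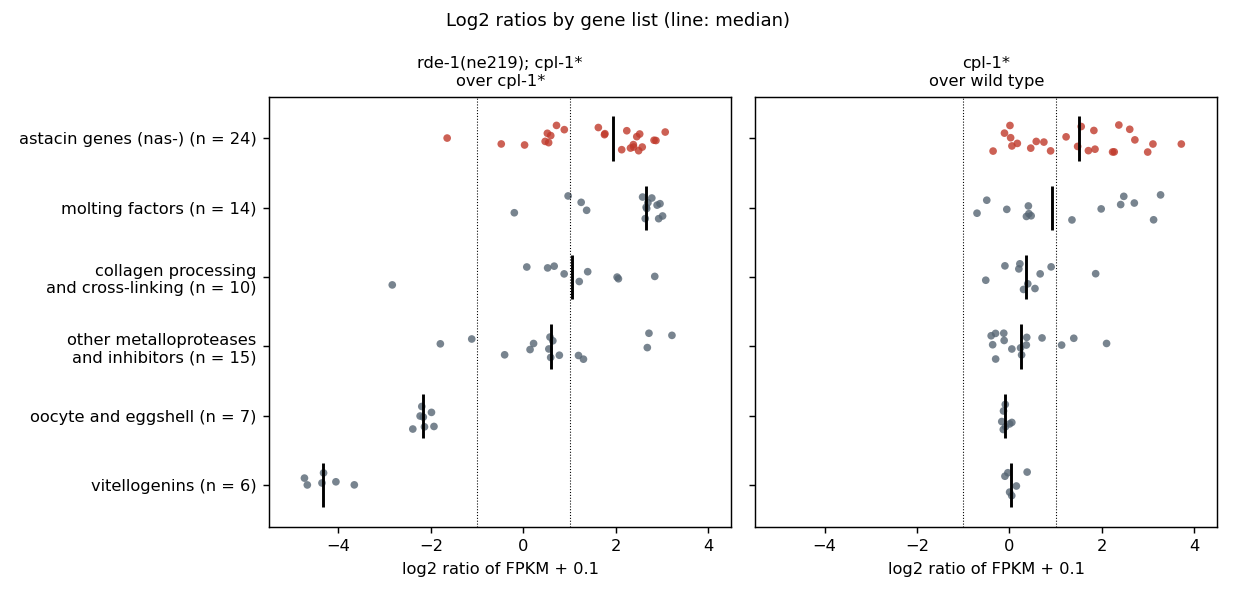
Log2 ratios of FPKM plus 0.1 (horizontal axis) of single genes that passed the filter, by gene list (rows), with a black line at each list's median, for the double strain over cpl-1* (left) and cpl-1* over the wild type (right). In the left panel the astacins and molting factors lie mostly above the 2-fold line while all 7 oocyte and eggshell genes and all 6 vitellogenins lie below -1. In the right panel those last lists lie near 0 while 7 of the 14 molting factors and 14 of the 24 astacins lie above 1. Of all genes that passed, 24.2% were higher and 13.8% lower in the left comparison, and 15.5% were higher in the right one. Most of the 24 astacins were under 1 FPKM in the wild type, so the filter helped to set their counts.

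Genes that mark the adult stage and the adult germ line moved with the comparison of the double strain and cpl-1*. The 6 vitellogenins, yolk protein genes that the adult intestine transcribes, summed to 567 FPKM in the double strain, 9580 FPKM in cpl-1* and 9594 FPKM in the wild type, and all 6 were lower in the double strain. The 7 oocyte and eggshell genes found of 8 looked for summed to 999.9 FPKM in the double strain, 4412 FPKM in cpl-1* and 4512 FPKM in the wild type, and all 7 were lower. Of all genes that passed the filter, 13.8% were lower in the double strain than in cpl-1*. The adult hypodermal collagen gene col-19 was listed at 745 FPKM in the double strain, 1837 FPKM in cpl-1* and 1714 FPKM in the wild type. No gene of these lists differed by 2-fold or more between cpl-1* and the wild type. There 15 of the 25 astacin entries that passed were higher, beside 15.5% of all genes. The filter helped to set that astacin count, whereas the genes of these lists were abundant in the wild type. Markers of other tissues differed less or otherwise. The intestinal regulator gene elt-2 had a log2 ratio of 1.21 and the body wall muscle myosin genes myo-3 and unc-54 had 0.89 and 0.67 in the double strain over cpl-1*. In the same comparison the intestinal gene ges-1 had 0.74, and the neuronal genes unc-119 and snb-1 had -0.53 and -0.03. The germ line genes glp-1, gld-1 and pgl-1 had -1.31, -1.28 and -0.61. The sperm protein gene msp-3 followed the astacin order, with 194 FPKM in the double strain, 107 FPKM in cpl-1* and 40.9 FPKM in the wild type, as did msp-10, with 25.6 FPKM in the double strain, 19.5 FPKM in cpl-1* and 8.66 FPKM in the wild type. In cpl-1* over the wild type msp-3 was 2.60-fold and msp-10 was 2.23-fold higher. The part of a difference in stage or tissue make-up in the astacin values was not tested. With 1 pooled value per strain it cannot be told apart from the rde-1 allele in the double strain against cpl-1*, nor from the transgene in cpl-1* against the wild type.

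Both manipulated genes were listed in every strain. The gene rde-1 had 19.3 FPKM in the double strain, 28.0 FPKM in cpl-1* and 28.3 FPKM in the wild type, and since ne219 is a missense allele this level does not check the genotype. The gene cpl-1, whose value can include reads of the transgene, had 9749 FPKM in the double strain, 2920 FPKM in cpl-1* and 1377 FPKM in the wild type. That order was shared by 24 of the 36 astacin entries and by 15.8% of all 46217 identifiers.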

How the data were processed

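The processed data were 1 table of the whole series. Per the submitters' processing notes and the study's methods, the authors checked reads with FastQC 0.11.7, mapped them with HISAT2 2.1.0 (Ensembl release 91, WBcel235), assembled transcripts with StringTie 1.3.4d and quantified them with Cuffdiff 2.2.1. The deposited FPKM are 1 pooled value per gene and strain. The table also holds the authors' fold changes, test statistics, P and q values, which were not used.

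Values were read with pandas 2.3.3 and numpy 2.4.6 (Python 3.11.15) and drawn with matplotlib 3.10.9. Log2 ratios used a pseudocount of 0.1 FPKM, and shares of all genes were taken over identifiers with a mean of at least 1 FPKM over the 3 strains. Positions are those of the table, counted from 1. Exons, strand and gene types came from Ensembl 115. The calculation was tested on simulated data. By rule, every astacin that passed the filter was named with its 3 values and the rest by count, range and name. Members and lists were chosen with earlier results of these data known. Alternatives varied the pseudocount, filter, fold, scaling and repeated identifiers.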

Additional observations from a re-analysis of the deposited data

How the results depend on the processing

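No paired analysis was possible because the pooled values carry no replicate numbers, and for the same reason no sample could be left out. With a pseudocount of 1 FPKM, 0 entries were lower in the double strain than in cpl-1*, 8 were higher in cpl-1* than in the wild type, and the median log2 ratios over the wild type were 0.79 for cpl-1* and 2.35 for the double strain. With no filter (36 entries), 3 were lower in the double strain than in cpl-1*, and the median log2 ratio of the double strain was 1.13 over cpl-1* and 1.38 over the wild type. With a mean of at least 5 FPKM (8 entries), 4 were higher and 0 lower in the double strain than in cpl-1*, 4 were higher in cpl-1* than in the wild type (median 0.64) and 4 were higher in the double strain than in the wild type (median 2.07). At 4-fold, 0 were lower in the double strain than in cpl-1* and 8 were higher in cpl-1* than in the wild type. With FPKM rescaled to the same sum in each strain, 23 entries passed and 0 were lower in the double strain than in cpl-1*. Apart from the set with no filter, shares over all genes were not taken under these settings. Whether these counts differ from the rest of the genome can therefore not be read from them.

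Both further alternatives were chosen after seeing the data. With at least 1 FPKM in the wild type (7 entries), 1 was higher and 0 lower in the double strain than in cpl-1* (median 0.59), 1 was higher in cpl-1* than in the wild type (median 0.026) and 1 was higher in the double strain than in the wild type (median 0.57). Leaving out members that share exon bases with a gene on the other strand kept every count within 1.5-fold, as did a pseudocount of 0.01 FPKM, centring on the median of all genes and counting nas-22 once. Of 288 log2 ratios of single members under the pseudocount and scaling alternatives, 242 moved by less than 0.5, 46 moved by more, all of them under another pseudocount, and 0 of those past 2-fold changed sign. Depth per library is unknown, so how far the values under 1 FPKM can be trusted could not be stated.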

Other observations

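A pair of further astacins stand in the table under joint names with a neighbouring gene, so their values cannot be assigned to one gene. The row of nas-4 and C05D11.5 was listed at 20.6 FPKM in the double strain, 7.90 FPKM in cpl-1* and 10.7 FPKM in the wild type. The row of nas-39, a relative of the tolloid proteases that act on growth factors, and F38E9.1 was listed at 7.24 FPKM in the double strain, 8.60 FPKM in cpl-1* and 14.2 FPKM in the wild type. The order of the 3 strains in both rows differs from that of most nas- genes.

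Metalloproteases of other families and their inhibitors were compared as a list of 19 genes, of which 17 were found and 15 had a mean of at least 1 FPKM. In the double strain against cpl-1*, 5 were higher and 2 lower, beside 24.2% and 13.8% of all genes that passed. The median log2 ratio of the list was 0.59. In cpl-1* against the wild type 3 were higher, beside 15.5% of all genes that passed, with a median of 0.24. With 15 genes, these counts are a description and no result about the list. The matrix metalloprotease gene zmp-2 had the order of most astacins, at 15.0 FPKM in the double strain, 1.53 FPKM in cpl-1* and 0.520 FPKM in the wild type. Its relative zmp-4 was nearly level, at 34.3 FPKM in the double strain, 31.01 FPKM in cpl-1* and 33.8 FPKM in the wild type. The membrane proteases of the ADAM family went the other way for unc-71, at 10.8 FPKM in the double strain, 37.9 FPKM in cpl-1* and 46.7 FPKM in the wild type, and for sup-17, at 26.6 FPKM in the double strain, 57.7 FPKM in cpl-1* and 70.9 FPKM in the wild type.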
